A study of Ovis aries with 24 samples.

Results

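The change of gene expression at birth in sheep was compared between 2 vessels, the ductus arteriosus and the ascending aorta, to separate changes that both vessels underwent from changes that differed between them. The measure was an interaction: newborn ductus minus near-term ductus, minus newborn aorta minus near-term aorta. It is called the difference between the vessels here, and it is positive where the ductus rose more, or fell less, than the aorta. It used 16 of the 24 arrays of the study, with 4 arrays in each of 4 groups. The near-term groups were fetuses of 136 days of gestation (140 days in the sample titles), and the newborn groups were lambs aged 12 hours. No treatment or genetic change is given for any group. The other 8 arrays came from preterm fetuses of 97 days (100 in the titles). They entered the estimate of the spread between arrays, the choice of tested probes and the choice of the brightest probe of a gene. Each group is given as 4 animals, with no statement on whether a ductus and an aorta came from 1 animal. The labels call the aortic tissue ascending aorta, while the protocol speaks of segments beside the ductus.

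The ductus arteriosus is the fetal vessel that lets blood pass from the pulmonary artery into the aorta and so around the lungs. Before birth it is held open by low oxygen and by prostaglandin E2, which acts through its receptors on smooth muscle. After birth oxygen rises and prostaglandin falls, the muscular wall constricts, and the constricted wall becomes short of oxygen and is remodelled until the channel is sealed. The ascending aorta passes through the same birth and stays open, so it serves as the comparison vessel.

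Single-colour Agilent arrays held 15008 sheep probes, and the 14000 that exceeded background clearly on 4 or more of the 24 arrays were tested. Values are log2 processed signals after subtraction of the 75th percentile of the array in question, so that 1 unit is a 2-fold change. "Called" means an adjusted p-value under 0.05 in limma, adjusted by Benjamini-Hochberg over the 14000 probes. The number after ± is the standard error from limma, and n is 4 per group unless an outlier spot was left out. The tested probes included 815 genes with a symbol, each represented by its brightest probe. Spots well above background made up 68.7% to 72.0% of the newborn ductus arrays, 66.2% to 94.4% of the near-term ductus arrays, 66.4% to 91.2% of the newborn aorta arrays and 70.0% to 92.7% of the near-term aorta arrays. The spike-in detection limit, read from each file header, lay above 1.5 on 0 newborn ductus, 2 newborn aorta, 2 near-term ductus and 3 near-term aorta arrays. The part of this imbalance in the results was not tested, beyond the fits given below that use the limit. All near-term arrays were on 1 slide and all newborn arrays on another. A change at birth within 1 vessel therefore cannot be told apart from a difference between slides, whereas a slide effect that is the same in both vessels cancels in the difference between them. On each slide the ductus arrays filled column 1 and the aorta arrays column 2, so vessel and column cannot be told apart, and a column effect that differed between slides would not cancel. In such whole-tissue RNA, fewer cells of a type and less RNA per cell cannot be told apart.

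Few probes had a called difference between the vessels, and most of those were called as rising in the ductus. A difference that was not called does not show an equal change in both vessels. The difference was called for 55 of 14000 probes (0.393%), of which 48 were positive (0.343%) and 7 negative (0.05%). Of the 48 positive probes, 47 had also been called as rising in the ductus. The median difference over all tested probes was -0.19, and scaling by quantiles moved it to -0.03, by the array median to -0.11 and with normexp background correction to -0.28. Without the arrays of a detection limit above 1.5 (7 of the 16, and preterm arrays too), which left 1 near-term aorta array, it was 0.15. The called probes carried 13 gene symbols, 11 of them on the brightest probe of the gene. The positive ones were IL6, SLC2A3, PTGS2, SOD2, CHI3L1, SELP, PTX3, RCAN1, MCL1 and TIMP1, and the negative one was INHA.

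**Figure D1:**
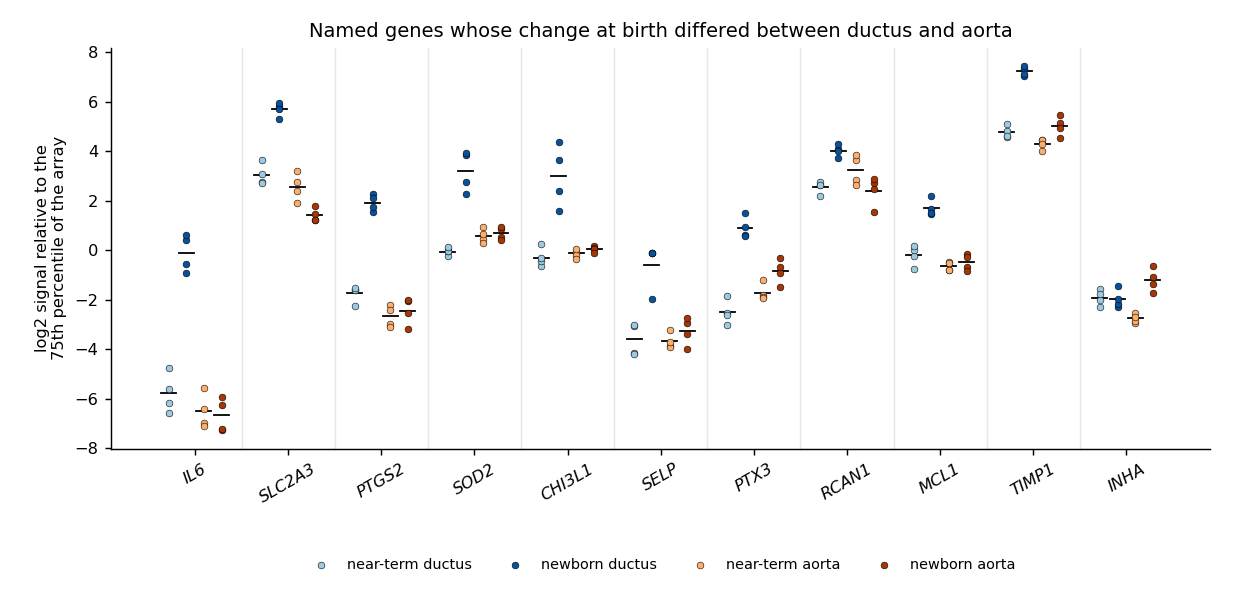
Log2 signal relative to the 75th percentile of the array (vertical axis) for the 11 named genes whose change at birth differed between the vessels. Points are single arrays, 4 per group, horizontal lines are group means, and colours mark near-term and newborn ductus and aorta. In 9 genes every newborn ductus array lies above all arrays of the other groups. In RCAN1 the near-term aorta reaches into them, and in INHA the newborn aorta is the highest group by its mean. The genes were chosen by the difference on these same arrays, so such separation is no added support. Its share over all tested probes was not counted.

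IL6, a cytokine that drives the acute phase response, was called in the difference with a positive sign. In the near-term ductus its 4 arrays read -5.59, -6.59, -4.75 and -6.19, and in the newborn ductus 0.44, -0.91, -0.55 and 0.61. The near-term aorta read -5.55, -6.97, -6.41 and -7.08, and the newborn aorta -6.25, -7.27, -5.93 and -7.24. Only the newborn ductus was high, and its lowest array lay above every array of the other groups. The probe was well above background on 4 of 4 newborn ductus arrays, 1 of 4 near-term ductus arrays and 0 aortic arrays of either age. The newborn ductus was 42.4-fold above the newborn aorta, measured against the lowest signal counted as well above background on each aortic array. This fold depends on that floor and is not a lower bound. The difference between the vessels was 5.85 ± 0.76 (adjusted p = 0.000427) and 5.40 with values raised to that floor. With normexp background correction it was 2.82 and was no longer called (adjusted p = 0.182).

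PTX3, a secreted pattern-recognition protein made at sites of inflammation, read -1.84, -2.53, -2.61 and -3.02 in the near-term ductus and 0.62, 0.58, 0.94 and 1.52 in the newborn ductus. Near-term aorta arrays read -1.82, -1.19, -1.90 and -1.92 and the newborn aorta -1.48, -0.31, -0.69 and -0.92. The ductus groups did not overlap, and the aortic groups did. The ductus rose by 3.41 ± 0.29 (adjusted p = 2.63e-07), the aorta changed by 0.86 ± 0.29 (adjusted p = 0.0837), and the difference was 2.55 ± 0.41 (adjusted p = 0.00361). A second probe gave 2.05 (adjusted p = 0.429), and the mean of both probes was 2.30 and was not called (adjusted p = 0.0646).

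CHI3L1, a chitinase-like glycoprotein of activated macrophages and remodelling tissue, read 0.26, -0.65, -0.44 and -0.33 in the near-term ductus and 3.64, 1.58, 2.39 and 4.38 in the newborn ductus. The aortic arrays stayed between -0.34 and 0.05 near term and between -0.09 and 0.18 in newborns. The newborn ductus arrays were all higher than the rest and also the most spread, with an SD of 1.25. The difference was 3.11 ± 0.59 (adjusted p = 0.0146), and it was not called when only the 16 arrays entered the fit (adjusted p = 0.0626). SELP encodes P-selectin, which lets leukocytes and platelets roll on activated endothelium. It read -3.04, -4.14, -3.02 and -4.19 in the near-term ductus and -0.12, -1.97, -0.11 and -0.12 in the newborn ductus. The aortic arrays ran from -3.92 to -3.21 near term and from -3.98 to -2.72 in newborns, so that they overlapped, while the ductus groups did not. The difference was 2.61 ± 0.54 (adjusted p = 0.0323). It was not called with normexp (1.69, adjusted p = 0.503), with quantile scaling (adjusted p = 0.175), with only the 16 arrays (adjusted p = 0.141) or as the mean of both probes (adjusted p = 0.0692).

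PTGS2 encodes cyclooxygenase-2, the inducible enzyme of prostaglandin synthesis. It read -1.58, -1.59, -2.25 and -1.5 in the near-term ductus and 2.29, 1.56, 1.74 and 2.11 in the newborn ductus. Aortic arrays near term read -2.19, -2.98, -3.11 and -2.42 and the newborn aorta -2.54, -2.05, -1.99 and -3.16. All 4 newborn ductus arrays lay above every other array, and the aortic groups overlapped. The ductus rose 12.6-fold (3.66 ± 0.30 on the log2 scale) while the aorta changed by 0.24 ± 0.30, a difference of 3.42 ± 0.42 (adjusted p = 0.000268). Quantile scaling kept the size (3.25) but not the call (adjusted p = 0.117). A second probe of the gene, with a mean log2 signal of -6.0 against -1.63 for the first, gave -1.45 (adjusted p = 0.880). The mean of both probes was 0.98 (adjusted p = 0.875).

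PTGS2 was the single called gene among the 9 measured of 20 listed prostanoid genes, and the median difference of the 9 was 0.07, or -0.35 with normexp background correction. PTGS1, the constitutive cyclooxygenase, differed by 0.25 (95% interval -0.35 to 0.86). SLCO2A1, the prostaglandin transporter that clears the hormone, differed by 0.48 (-0.50 to 1.47). PTGER4, the prostaglandin E2 receptor linked most closely to relaxation of the ductus, differed by -0.35 (-4.06 to 3.36), an interval too wide to place it. Among 18 measured of 37 genes for vasoactive signals the difference was called for 0, with a median of -0.18 that turned to 0.21 under quantile scaling. EDN1, the constrictor peptide endothelin-1, differed by 0.21 (-0.79 to 1.21), its receptor EDNRA by 0.55 (-2.03 to 3.13) and NOS3, the nitric oxide synthase of endothelium, by 1.44 (0.42 to 2.46, adjusted p = 0.362). The angiotensin receptors AGTR1 and AGTR2 differed by -0.60 (-1.70 to 0.51) and 1.18 (-0.47 to 2.82), and the neuropeptide Y receptor NPY1R by -0.45 (-1.45 to 0.54). AGTR2 fell in the aorta by 2.33 (adjusted p = 0.0164) and its change in the ductus was -1.15 (adjusted p = 0.151), yet the difference between them was not called (adjusted p = 0.832).

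SLC2A3 encodes GLUT3, a glucose transporter of high affinity that cells raise when oxygen is short. It read 2.76, 2.71, 3.08 and 3.64 in the near-term ductus and 5.84, 5.73, 5.94 and 5.30 in the newborn ductus. For the near-term aorta the values were 2.40, 1.93, 2.75 and 3.20 and the newborn aorta 1.48, 1.23, 1.77 and 1.22. The groups did not overlap in either vessel, and the vessels moved in opposite directions. The ductus rose by 2.66 ± 0.29 (adjusted p = 7.05e-06) and the aorta fell by 1.14 ± 0.29 (adjusted p = 0.0219). The difference of 3.80 ± 0.41 (adjusted p = 0.000165) was called in all 14 processing alternatives and with each of the 16 arrays left out. SLC2A3 was the single named gene called in opposite directions. A second probe gave a difference of 3.84 ± 0.45, and on it the fall in the aorta was not called (-1.06, adjusted p = 0.0527).

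VEGFA, the vascular endothelial growth factor that hypoxia induces, moved the same way on both of its probes, but only the dimmer one was called. On that probe the near-term ductus read -2.95, -3.98, -3.25 and -3.12 and the newborn ductus 0.14, -1.90, -0.79 and -1.40. Readings in the near-term aorta were -4.89, -4.04, -3.04 and -3.77 and the newborn aorta -6.72, -6.66, -6.32 and -4.25. The ductus groups did not overlap, while the aortic groups did, and the newborn aorta was well above background on 1 of 4 arrays. The difference was 4.39 ± 0.76 (adjusted p = 0.00649) on the dimmer probe and 3.93 ± 1.02 (adjusted p = 0.134) on the brighter one. SLC2A3 was the 1 called gene among 6 measured of 16 hypoxia-response genes, and their median difference was 1.37. Of the 6 measured glycolytic genes of 16 listed 0 were called, with a median of 0.95 and 5 of 6 above 0. LDHA, the lactate dehydrogenase subunit induced by hypoxia, differed by 1.35 (0.53 to 2.16, adjusted p = 0.219), on 3 near-term aorta arrays since 1 spot was marked as an outlier. PFKL, the liver form of phosphofructokinase, differed by 1.43 (adjusted p = 0.310) and GAPDH by 0.83 (adjusted p = 0.590).

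SOD2, the mitochondrial superoxide dismutase, read -0.24, -0.04, -0.04 and 0.12 in the near-term ductus and 3.85, 2.27, 2.77 and 3.95 in the newborn ductus. Near-term aorta arrays read 0.93, 0.46, 0.29 and 0.68 and the newborn aorta 0.85, 0.55, 0.96 and 0.44. The ductus groups lay far apart and the aortic groups overlapped. The difference was 3.16 ± 0.39 (adjusted p = 0.000268), with 2.94 ± 0.47 on a second probe. MCL1, a protein of the BCL2 family that protects cells from apoptosis, read -0.76, -0.24, 0.02 and 0.16 in the near-term ductus and 1.66, 2.21, 1.47 and 1.5 in the newborn ductus. Its aortic arrays ran from -0.80 to -0.46 near term and from -0.82 to -0.15 in newborns. The difference was 1.74 ± 0.32 (adjusted p = 0.0131), and 1.83 with median centring, where it was not called (adjusted p = 0.228). These were the called genes among 8 measured of 25 genes of oxidative stress and cell survival, whose median difference was 0.29.

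RCAN1, an inhibitor of the phosphatase calcineurin that calcium signals induce, was called on changes of opposite sign. It read 2.65, 2.74, 2.19 and 2.66 in the near-term ductus and 4.08, 4.31, 3.72 and 4.01 in the newborn ductus. Aortic arrays near term read 2.83, 2.65, 3.66 and 3.86 and the newborn aorta 1.57, 2.73, 2.88 and 2.49. The ductus groups did not overlap, and the aortic groups did. The ductus rose by 1.47 ± 0.34 (adjusted p = 0.00814), the aorta changed by -0.84 ± 0.34 (adjusted p = 0.159), and the difference was 2.31 ± 0.47 (adjusted p = 0.0343). It was not called with median centring (adjusted p = 0.0947) or array weights (adjusted p = 0.0691).

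TIMP1, the tissue inhibitor of matrix metalloproteinases, was the 1 named gene called as rising in both vessels whose difference was also called. It read 4.58, 4.84, 4.63 and 5.09 in the near-term ductus and 7.31, 7.04, 7.14 and 7.45 in the newborn ductus. For the near-term aorta the values were 4.00, 4.44, 4.46 and 4.28 and the newborn aorta 5.14, 5.46, 4.94 and 4.56. No groups overlapped within a vessel. The ductus rose 5.47-fold and the aorta 1.66-fold, a difference of 1.72 ± 0.27 (adjusted p = 0.00291). A second probe gave a difference of 1.88 ± 0.26, with an aortic rise of 0.48 that was not called (adjusted p = 0.138). With median centring the difference was 1.81 (adjusted p = 0.186). The rise in the aorta (adjusted p = 0.0264) was not called without near-term aorta replicate 1 or 4 or newborn aorta replicate 1 or 2, where its adjusted p reached 0.100, nor with quantile scaling, median centring or only the 16 arrays.

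Of 11 measured of 40 listed TIMP1 alone was called in the difference, and their median was 0.07. HYAL2, a hyaluronidase, rose in the ductus by 0.59 (adjusted p = 0.0356) with a difference of 0.65 (0.14 to 1.16, adjusted p = 0.457). The proteoglycan DCN differed by 0.31 (-0.44 to 1.06) and the gelatinase MMP2 by 0.07 (-0.36 to 0.50). Of 6 measured contractile and cytoskeletal genes 0 were called in the difference, with a median of -0.44 and 5 of 6 below 0. CNN1, the smooth-muscle calponin, rose in the aorta by 0.83 (adjusted p = 0.0264) and differed between the vessels by -0.93 (-1.54 to -0.32, adjusted p = 0.290), on 3 near-term aorta arrays since 1 spot was an outlier. ACTG1, a cytoskeletal actin, rose in the aorta by 0.47 (adjusted p = 0.0462) and differed by -0.39 (-0.79 to 0.02).

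INHA, the alpha subunit of inhibin, which opposes activin, was the named gene of opposite sign. It read -2.28, -1.58, -2.02 and -1.78 in the near-term ductus and -2.28, -1.44, -2.17 and -1.95 in the newborn ductus. Readings in the near-term aorta were -2.95, -2.51, -2.86 and -2.68 and the newborn aorta -1.36, -1.74, -1.06 and -0.62. The ductus groups lay on top of each other, and the aortic groups did not overlap. The aorta rose by 1.56 ± 0.24 (adjusted p = 0.00104), the ductus changed by -0.05 ± 0.24, and the difference was -1.61 ± 0.34 (adjusted p = 0.0349). Across the alternatives it lay between -1.70 and -0.98. It was not called with normexp (adjusted p = 0.661), quantile scaling (adjusted p = 0.193), median centring (adjusted p = 0.280) or only the 16 arrays (adjusted p = 0.0936), nor as the mean of both its probes (adjusted p = 0.0576).

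INHA was the 1 called gene among 28 measured of 37 genes for TGF-beta, activin, BMP and Notch signals, whose median difference was -0.15. INHBA, the subunit that forms activin, fell in the ductus by 0.79 (adjusted p = 0.0168), and its difference was -0.95 (-1.56 to -0.35, adjusted p = 0.255). TGFB1, a growth factor that promotes matrix deposition, rose in the ductus by 1.02 (adjusted p = 0.00215) with a difference of 0.71 (0.13 to 1.29). BMP6, a bone morphogenetic protein, fell in the ductus by 1.06 (adjusted p = 0.0396) with a difference of -1.16 (-2.11 to -0.21). SNAI2, a transcription factor of mesenchymal cells, differed by -0.05 (-0.65 to 0.55), and HSD11B1, which regenerates active glucocorticoid, by 1.68 (0.49 to 2.87, adjusted p = 0.362).

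The 11 named genes were not called between the vessels before birth, and all 11 were called after it. Near term the adjusted p of ductus against aorta ran from 0.114 for INHA to 0.968 for SELP, where 1.15% of all probes were called. In newborns it ran from 2.44e-08 for SLC2A3 and PTGS2 to 0.0453 for INHA, where 10.1% of all probes were called. The newborn ductus minus aorta value was 4.36 for PTGS2, 4.28 for SLC2A3 and -0.77 for INHA. These comparisons use the same arrays as the difference at birth and are not independent of it.

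Of 23 measured inflammatory genes of 37 listed, 13 were called as rising in the ductus, where 4.37% of all probes rose and 6.45% fell, and 3 in the aorta, where 3.07% rose and 3.37% fell. The difference was called for IL6, PTX3, CHI3L1 and SELP, 18 of 23 differences were above 0, and their median was 1.34 against -0.24 for all named genes. With normexp the median was 0.73 and with quantile scaling 1.34. The inflammatory list, like the others, was written with earlier results of these data known. It holds called genes, so its median is no independent support. Several members rose in the ductus without a called difference. ICAM1, an adhesion molecule for leukocytes, rose by 2.47 there and differed by 2.01 (0.87 to 3.15, adjusted p = 0.154). The complement component C3 rose by 1.40 and differed by 1.96 (0.81 to 3.12, adjusted p = 0.188), and the cytokine IL1B rose by 1.89 and differed by 1.51 (0.12 to 2.90, adjusted p = 0.587). IL1A, a related cytokine, differed by 0.84 (-1.32 to 2.99).

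The named genes just outside the threshold were PRLH, SAA3 and CD9. SAA3 is an acute phase serum amyloid protein. It read 1.61, 1.32, 1.84 and 1.74 in the near-term ductus and 7.90, 5.91, 6.73 and 8.06 in the newborn ductus. The near-term aorta read 3.49, 4.20, 1.30 and 0.48 and the newborn aorta 4.34, 3.15, 3.75 and 3.59. The ductus groups were far apart, while the near-term aorta was so spread that it overlapped the newborn aorta. The difference was 4.18 ± 0.94 (adjusted p = 0.0556). PRLH, a prolactin-releasing peptide, differed by -2.50 ± 0.55 (adjusted p = 0.0524), and CD9, a membrane tetraspanin, by 1.24 (adjusted p = 0.131). SAA3 and PRLH were each called under 6 of 14 alternatives, and SAA3 in 3 and PRLH in 1 of 16 omissions of an array.

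Immediate early genes, the transcription factors and regulators that cells switch on within minutes of a stimulus, had a median difference of 1.20. Of 9 measured of 16 listed, 5 rose in the ductus, where 4.37% of all probes did, and 1 in the aorta, against 3.07%. RCAN1, listed here too, was the 1 called. ZFP36, which marks inflammatory mRNAs for decay, rose in the ductus by 1.93 and differed by 1.58 (0.72 to 2.45, adjusted p = 0.134). FOS and EGR1 differed by 2.50 (0.57 to 4.44) and 1.20 (0.20 to 2.19). MYC rose in the ductus by 1.67 (adjusted p = 0.00485), changed by 1.10 in the aorta (adjusted p = 0.0725) and differed by 0.56 (-0.49 to 1.62). CREM, a regulator of cyclic AMP responses, rose in the ductus by 0.78 and differed by 0.48 (0.05 to 0.92). Medians of the inflammation, immediate early, hypoxia and glycolysis lists stayed above 0 under normexp, quantile and median scaling and with the detection limit as a covariate.

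**Figure D2:**
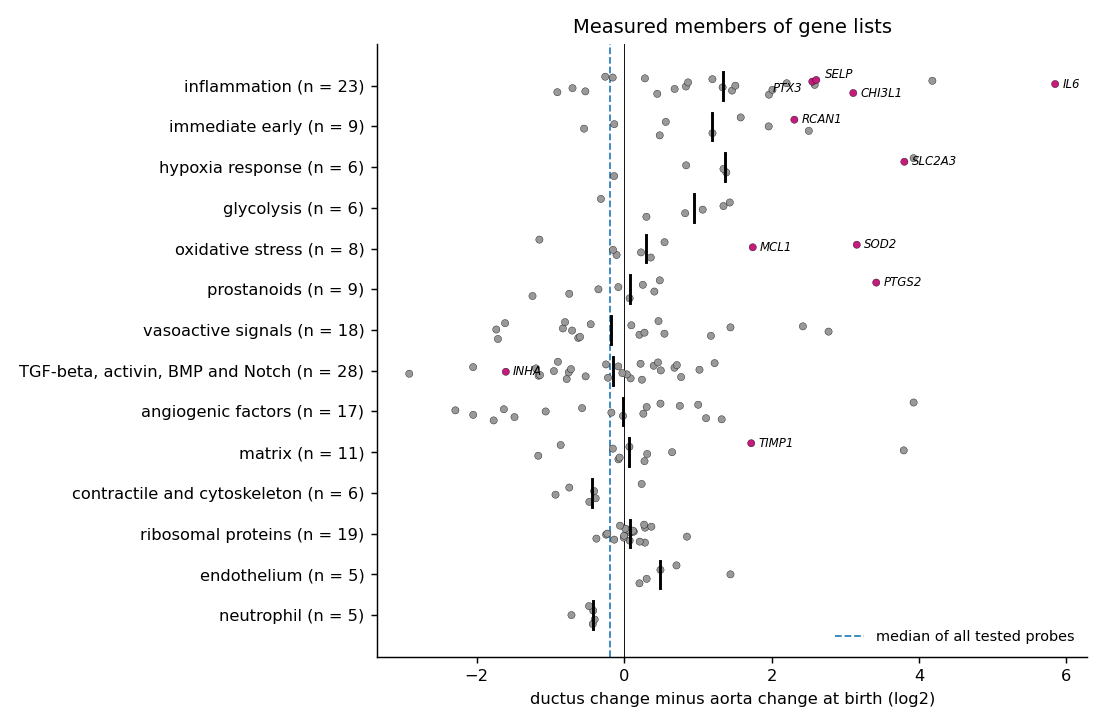
Difference between the vessels at birth (log2, horizontal axis) for each measured member of 12 gene lists and 2 cell type marker lists. Points are genes, coloured where called and labelled, black bars are list medians and the dashed line is the median of all tested probes at -0.19. Inflammation, immediate early, hypoxia response and glycolysis have medians of 0.95 to 1.37. The lists were written with earlier results of these data known. The medians of the contractile and neutrophil lists lie below 0, and that of the neutrophil list turned to 0.39 with quantile scaling.

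For most probes called in 1 vessel alone, the difference between the vessels was not called. In the ductus 1515 probes were called and in the aorta 902, and 1105 were called in the ductus only. The difference was called for 40 of those 1105 (3.62%), and for 2 of the 492 probes called in the aorta only (0.407%). Among probes that rose in the ductus only it was called for 35 of 424 (8.25%), and among those that fell in the ductus only for 5 of 681 (0.734%). The median standard error of the difference was 0.45 over all tested probes, and the smallest called difference was 0.79 in size. Among named genes 72 were called in the ductus only and 8 of them had a called difference. XBP1, a transcription factor of the unfolded protein response, was an example for the aorta. It rose there by 0.55 (adjusted p = 0.0328) and changed in the ductus by 0.41, which was not called. Its difference was -0.14 (-0.58 to 0.30).

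Calls in opposite directions were rare. There were 8 such probes, 7 higher in the ductus and lower in the aorta and 1 the reverse, and the difference was called for all 8. They included SLC2A3 and the dimmer VEGFA probe, and the other 6 had no gene symbol. The reverse probe, A_70_P009511, read -0.84, -1.44, -0.90 and -1.29 in the near-term ductus and -1.91, -1.79, -2.29 and -2.14 in the newborn ductus. The near-term aorta read -0.06, -0.54, -0.05 and -0.51 and the newborn aorta 1.37, 0.01, 0.28 and 0.69. No groups overlapped within a vessel, and the difference was -1.79 ± 0.36 (adjusted p = 0.0291).

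**Figure D3:**
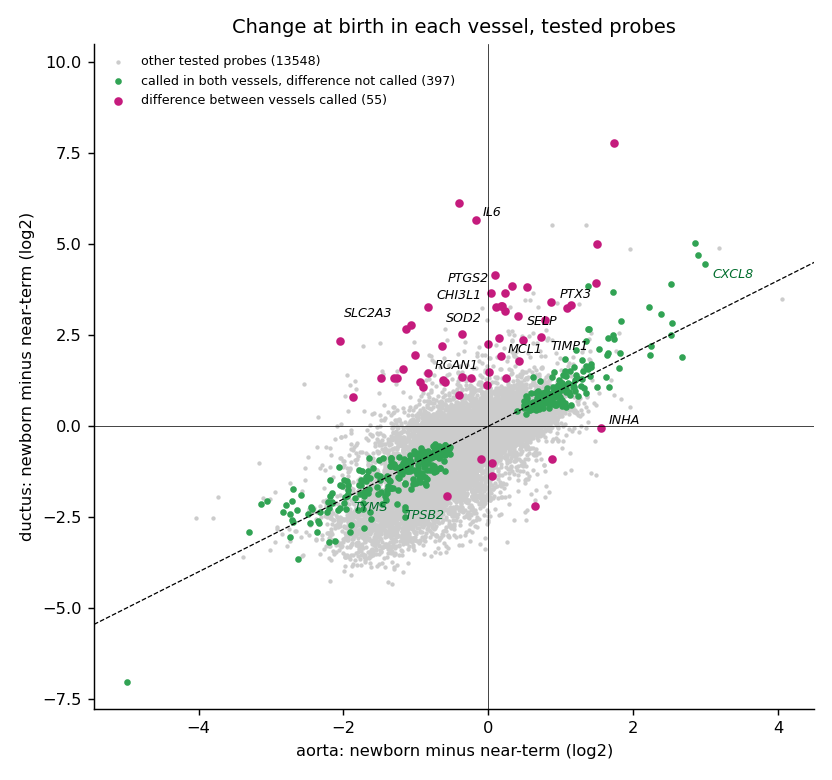
Change at birth (newborn minus near-term, log2) in the aorta (horizontal axis) against the ductus (vertical axis) for 14000 tested probes. Coloured points mark the 55 probes whose difference was called and the 397 others called in both vessels in the same direction, and the dashed line marks equal change. Most of the 55 lie above the line.

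In both vessels 402 probes were called in the same direction, 181 rising (1.29%) and 221 falling (1.58%), which was 26.5% of the calls in the ductus and 44.6% of those in the aorta. The difference was called for 5 of the 402, all of them rising further in the ductus. For 374 of the 402 the 95% interval of the difference included 0, with a median width of 1.34, so changes of unequal size were not excluded. The ductus moved further in 214 of the 402. The vessels share no arrays in this comparison but share their slides, so a slide effect common to both would count as shared. They also share the estimate of the spread of each probe, so calls in both vessels are not independent of each other.

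Among named genes 20 were shared, 11 rising and 9 falling. CXCL8, the chemokine interleukin-8 that draws neutrophils, rose most in both. It read -3.44, -4.22, -3.99 and -3.45 in the near-term ductus and 0.76, 0.47, 0.40 and 1.10 in the newborn ductus. The near-term aorta read -3.47, -3.57, -3.85 and -3.87 and the newborn aorta 0.26, -1.23, -0.25 and -1.57. Newborn arrays were all above near-term arrays in both vessels, and the newborn ductus arrays were above the newborn aorta arrays. CXCL8 rose by 4.46 ± 0.32 in the ductus and 2.99 ± 0.32 in the aorta, and the difference was 1.46 (0.52 to 2.41, adjusted p = 0.273). JUNB, a component of the AP-1 transcription factor, read -1.19, -2.50, -0.71 and -0.69 and then 2.83, 2.11, 2.47 and 2.22 in the ductus. In the aorta it read -3.12, -1.56, -1.13 and -1.23 and then 0.07, -0.54, 0.37 and -0.05. It rose by 3.68 and 1.72, and the difference of 1.96 (0.74 to 3.18) was not called (adjusted p = 0.237), although it was called with the detection limit as a covariate (2.15, adjusted p = 0.0350) and with normexp (2.28, adjusted p = 0.0147). A dimmer probe gave 2.48 (adjusted p = 0.0532). Without near-term aorta replicate 1 the difference was 2.41 and was called, while the rise in the aorta was 1.27 and was not (adjusted p = 0.0539).

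Most other shared rises had an interval of the difference that included 0. TNFRSF11B, the decoy receptor osteoprotegerin, rose by 1.36 in the ductus and 1.62 in the aorta, a difference of -0.26 (-1.02 to 0.51). CD14, the lipopolysaccharide co-receptor of monocytes, rose by 1.51 and 1.07 (difference 0.45, -0.16 to 1.06), and the small heat shock protein CRYAB by 1.40 and 1.21 (difference 0.19, -0.62 to 0.99). FABP4, a fatty acid carrier of fat and microvascular endothelium, rose by 2.2 and 2.24, with a difference of -0.04 and a wide interval of -1.68 to 1.59. In its near-term aorta 1 array, at 1.63, stood far above the other 3, between -1.75 and -1.31, and the aortic rise was 3.05 without it. That rise was not called without near-term aorta replicate 1, 2 or 3 or newborn aorta replicate 1. PDXK, which activates vitamin B6, rose by 2.34 and 1.34. Its aortic rise was not called without near-term aorta replicate 1 or 2 or newborn aorta replicate 1 or 2. SRSF3, IFNAR1 and COPG2, of splicing, interferon reception and vesicle coats, rose by 0.44 to 0.80 in the ductus and 0.66 to 0.93 in the aorta. Each of these 3 lost a call when certain single arrays were left out (adjusted p up to 0.112) and with median centring.

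Of 4 measured of 23 listed proliferation genes 2 fell in the ductus and 1 in the aorta. The 1 that fell in both, TYMS, which makes thymidylate for DNA synthesis, read -0.62, -0.53, -0.04 and -0.11 and then -1.82, -3.00, -2.86 and -1.30 in the ductus. In the aorta it read -0.53, -0.17, -0.46 and -0.52 and then -1.88, -3.71, -2.44 and -1.48. Newborn arrays were below near-term arrays in both vessels, and the newborn groups overlapped each other. It fell by 1.92 and 1.96, a difference of 0.04 (-1.08 to 1.16). ASPM, a protein of the mitotic spindle poles, fell by 2.31 and 2.65 (difference 0.34, -1.20 to 1.88), and HMMR, a hyaluronan receptor of the mitotic spindle, by 2.1 and 1.74 (difference -0.39, -1.21 to 0.43). A second probe of HMMR had a mean log2 signal of -6.02, against -1.85 for the first. As the mean over both probes the fall of HMMR was not called in either vessel. With quantile scaling the fall of ASPM was not called in the ductus. PCNA, the sliding clamp of DNA replication, fell in the ductus by 1.08 (adjusted p = 0.0186), and its difference was -0.74 (-1.58 to 0.09).

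TPSB2, a tryptase of mast cells, read 3.61, 3.78, 3.65 and 4.09 near term and 2.02, 1.08, 1.96 and 1.52 after birth in the ductus. In the aorta it read 2.61, 2.09, 2.60 and 2.97 and then 1.55, 0.57, 1.56 and 1.55. It fell by 2.14 and 1.26, and the difference was -0.88 (-1.67 to -0.09, adjusted p = 0.564). IGFBP2, a binding protein of insulin-like growth factors, fell by 1.10 and 1.21 (difference 0.11, -0.65 to 0.87), and PMCH, a neuropeptide precursor, by 1.95 and 1.98 (difference 0.03, -0.85 to 0.91). Quantile scaling ended both calls of PMCH, and median centring those of IGFBP2 and the aortic calls of TPSB2, CD14 and CRYAB. PFKM, the muscle form of phosphofructokinase, APOA1, an apolipoprotein, and the chemokine receptor CCR3 fell by 1.40 to 1.80 in the ductus and 1.34 to 1.70 in the aorta. Each of these 3 lost a call without certain single arrays (adjusted p up to 0.179). An aortic spot of PFKM was marked as an outlier and left out, and with flagged spots kept its aortic fall was not called.

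**Figure D4:**
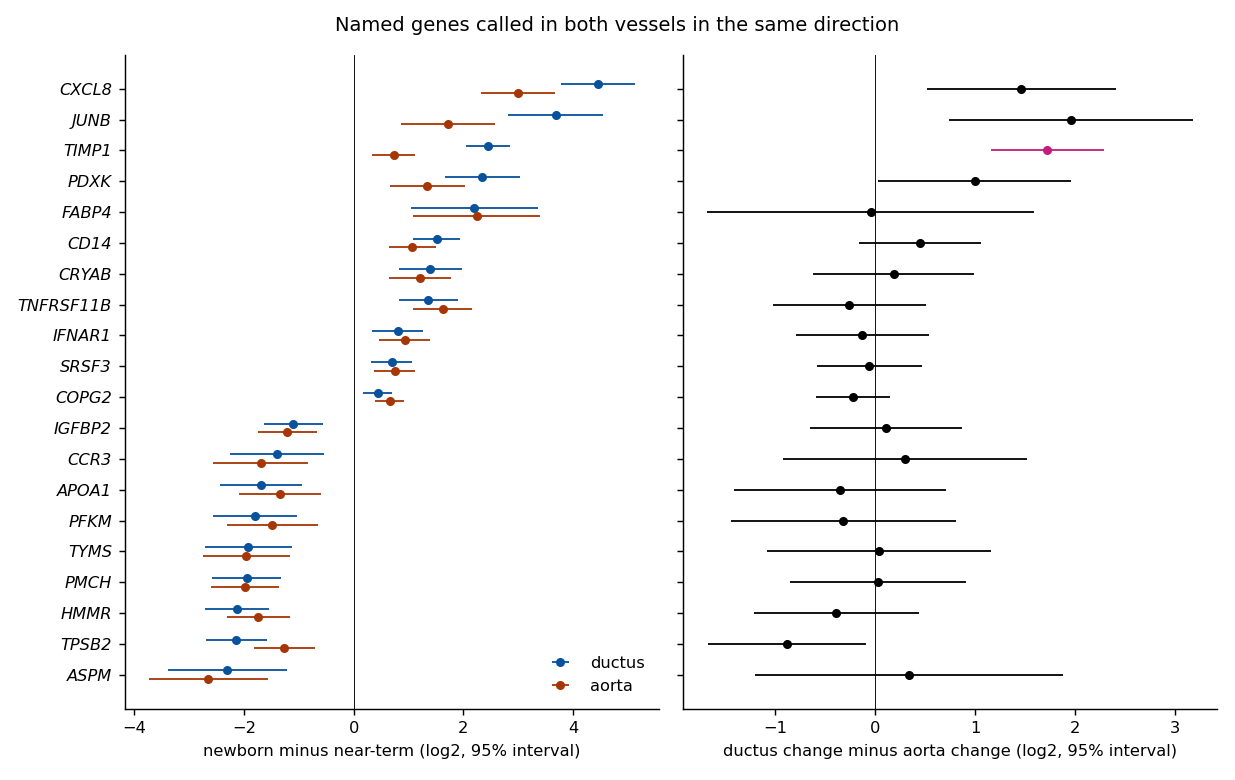
Left, change at birth (newborn minus near-term, log2) in the ductus and aorta for the 20 named genes called in both vessels in the same direction; right, the difference of the 2 changes. Points are fitted values and bars 95% intervals. The difference is called for TIMP1 alone (coloured), and 15 of the 20 intervals include 0.

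Markers of the wall itself were few among the measured genes, and the difference was called for 0 members of any marker list. Calponin CNN1 was the 1 measured of 7 smooth muscle markers and was well above background on every array of the 4 groups. Of 5 measured of 9 endothelial markers 0 were called in the difference, with a median of 0.49. Their summed level, as log2 of the sum, ran from 0.13 to 0.76 in the near-term and 0.76 to 1.54 in the newborn ductus, and from -0.47 to 0.81 and -0.66 to 0.29 in the aorta. The 4 macrophage markers of 8 listed had a median difference of 0.37, and 0 were called. Their summed level ran from -1.02 to -0.30 and then 0.39 to 0.75 in the ductus, and from -0.64 to -0.22 and then -0.14 to 0.57 in the aorta. The part of either list in the called genes was not tested. All 5 measured of 12 neutrophil markers had differences below 0 (0 called, median -0.43), although the median was 0.39 with quantile scaling. It was 1.32 without the arrays of a detection limit above 1.5, which left 1 near-term aorta array. Their summed level was -4.20 to -1.97 in the newborn ductus and -3.95 to 0.29 in the near-term ductus. In each of these groups 1 of the 5 was well above background on all 4 arrays, so most members were dim in the ductus. In both aortic groups all 5 were well above background on all 4 arrays. There the summed level was -0.70 to 0.86 near term and -1.44 to 0.10 in newborns. A change in neutrophils was not tested. The haemoglobin gene HBB was the 1 measured of 10 erythroid markers, and its difference of 1.71 ± 1.17 was not called (adjusted p = 0.846).

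Most called probes could not be named. Of the 55, 39 carried no gene symbol. The largest were A_70_P019681, at 6.55 ± 1.07 (adjusted p = 0.00412), and A_70_P037411, at 6.05 ± 1.19 (adjusted p = 0.0215). The first read -3.51, -2.90, -2.83 and -2.66 and then 3.74, 1.37, 2.42 and 5.14 in the ductus, against -1.90, -0.14, -3.40 and -2.87 and then -1.74, -2.89, -2.89 and -2.42 in the aorta. Its ductus groups were far apart and its aortic groups overlapped. A_70_P005781, called with a negative sign, was well above background on 3 near-term ductus arrays and on 0 arrays of the 3 other groups, and with values floored at the detection limit it was not called (-0.72, adjusted p = 0.821). NAMPT, an enzyme of NAD synthesis, was called on its dimmer probe (1.55 ± 0.32, adjusted p = 0.0323) and not on its brighter one (0.35 ± 1.01).

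The direction of the called differences held better than the calls. All 55 probes kept their sign in each of 13 other fits in which they were tested and with each of the 16 arrays left out. With the detection limit as a covariate 53 of the 55 stayed called, among them all 11 named genes. Fewer stayed called under the scaling changes. Median centring kept 28 of the 55 and 7 of the 11 named genes, normexp 39 and 8, and quantile scaling 44 and 8. Another fit dropped the arrays with a limit above 1.5, which were 7 of the 16 and some preterm arrays. It left 1 near-term aorta array, whose spread is assumed to be that of the other groups, and its calls lean on that array. There TIMP1 differed by 0.98, against 1.72 with all arrays. With each of the 16 arrays left out in turn, 8 of the 11 stayed called every time. INHA was not called in 12 of the 16 omissions, RCAN1 in 11 and SELP in 10, with adjusted p up to 0.0999, 0.0872 and 0.0902. INHA stayed called without near-term aorta 2, near-term ductus 1, newborn aorta 2 or newborn ductus 2. RCAN1 did so without near-term aorta 1 or 2, newborn aorta 2 or 3 or newborn ductus 3, and SELP without near-term aorta 1, near-term ductus 1 or 3, newborn aorta 1 or 3 or newborn ductus 2.

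**Figure D5:**
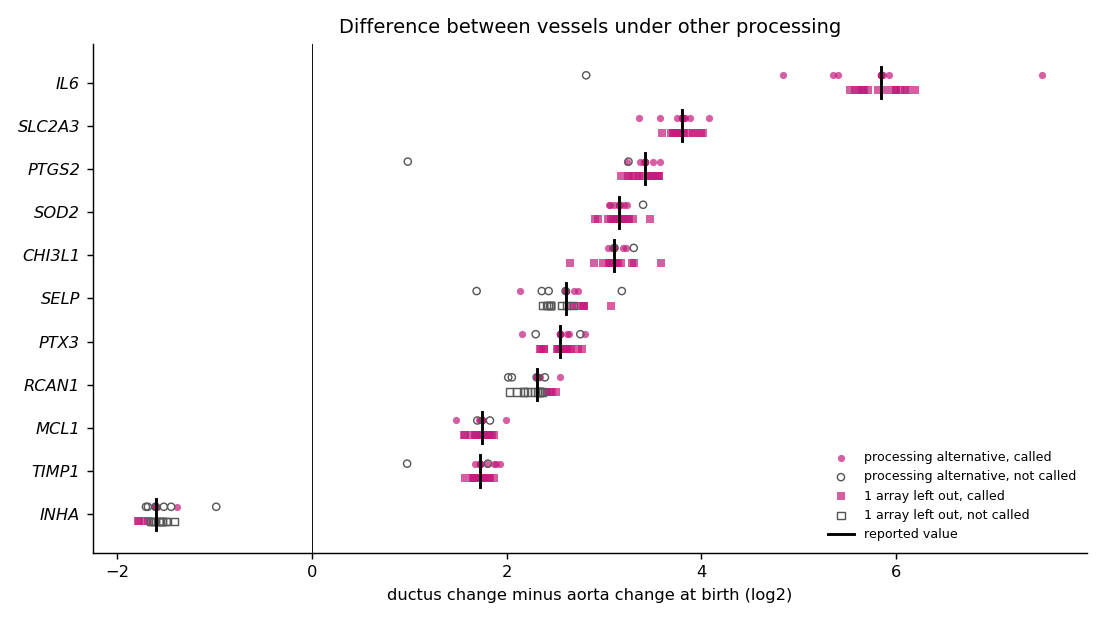
Difference between the vessels (log2, horizontal axis) for the 11 named genes under the processing alternatives (circles) and with 1 array left out (squares). Filled symbols were called and open symbols were not, and black bars mark the reported values. No gene changed sign, and SLC2A3 was called throughout.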

How the data were processed

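Cy3-labelled cRNA made from total RNA was hybridised, 1 sample per array. The deposited values are spot intensity, background-subtracted and detrended by Agilent Feature Extraction 9.5.3.1, per the file headers. Control spots and spots marked as outliers (2 to 93 on each of the 16 arrays) were left out, log2 signals were set against the 75th percentile of each array, and spots of 1 probe were averaged. Within groups, arrays correlated at 0.857 to 0.985 across probes, 0 of 276 pairs of arrays held identical values, and their number limits the precision. One linear model with a mean for each of the 6 groups was fitted to all 24 arrays with lmFit, moderated with eBayes and tested two-sided (R 4.3.3, limma 3.58.1); the code was tested on simulated data. The p-values measure the spread between these arrays, in which animals and technical differences between arrays cannot be told apart. Symbols, 859 in all, came from the RefSeq gene table (assembly ARS-UI_Ramb_v3.0), the array's names and a table made by hand, and 13488 probes are unnamed. Replicate numbers were not taken as pairs, since some same-numbered arrays correlated below 0. Named genes, each represented by its brightest probe, were the called ones, those called in both vessels, the members of each list with the smallest p and a panel of ductus genes. Genes and lists were chosen with earlier results of these data known. Some genes under the rule are not printed. Alternatives are under the closing section.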

Additional observations from a re-analysis of the deposited data

Results flagged for a closer look

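The 11 named genes whose change at birth differed between ductus and aorta by the test of the difference itself were IL6 (5.85), SLC2A3 (3.80), PTGS2 (3.42), SOD2 (3.16), CHI3L1 (3.11), SELP (2.61), PTX3 (2.55), RCAN1 (2.31), MCL1 (1.74), TIMP1 (1.72) and INHA (-1.61), all on the log2 scale.

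Single arrays stood far from the other 3 of their group in 16 of 273 groups examined, where chance alone would give 13.7 (about 1 in 20). In the near-term ductus these were PTGS2 on replicate 3 (-2.25, the lowest), NOS3 on replicate 2 (-1.01, the lowest), CNN1 (5.73) and HMMR (-1.53) on replicate 1, both the lowest, and TNFRSF11B on replicate 3 (1.25, the highest). In the newborn ductus they were SELP (-1.97) and IL1B (-2.40) on replicate 2, both the lowest, and TNFRSF11B on replicate 1 (2.08, the highest). In the near-term aorta they were PTX3 on replicate 2 (-1.19, the highest), FABP4 (1.63) and HYAL2 (0.089) on replicate 4, both the highest, BMP6 (-2.50) and ZFP36 (0.52) on replicate 1, both the lowest, and ASPM on replicate 3 (-2.84, the lowest). In the newborn aorta they were IL1B (-3.81) and TPSB2 (0.57) on replicate 2, both the lowest.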

How the results depend on the processing

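The count of 55 probes whose change at birth differed between the vessels was 33 with median centring, 153 without the 7 arrays of a higher detection limit, which left 1 near-term aorta array, 130 with array weights and 89 with the replicate block, and 51 to 81 with the other alternatives. For the ductus 1515 became 5412 with normexp, 614 without those arrays and 6885 with array weights. For the aorta 902 became 180 with median centring, 1498 without those arrays and 2330 with weights. The shared 402 became 111 with median centring, 265 with only the 16 arrays, 134 without those arrays and 1445 with weights. With 1 array left out they ran from 39 to 63 for the difference, 921 to 2171 for the ductus, 478 to 1532 for the aorta and 248 to 669 for shared changes. The cause was not tested; the fits with fewer arrays have fewer samples. Positive calls made up 87.3% of differences, 81.8% to 97.0% under scaling changes and 71.5% with array weights. They made up 40.4% of ductus calls, which was 12.8% with normexp, 57.0% with quantile scaling and 60.7% with median centring. CCR3 in the ductus turned to 0.0030 with quantile scaling. In the replicate block fit INHA (adjusted p = 0.0541) and RCAN1 (adjusted p = 0.0599) were not called. Same-numbered arrays of both vessels had correlations of -0.58 to 0.82 near term and -0.03 to 0.19 in newborns, and 1 and 3 of 4 ductus arrays correlated best with their own number. Probes dimmer than the background are limited most.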
